A study of Dugesia japonica with 12 samples.

Results

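The transcripts described here are those of the planarian mitochondrial genome that encode subunits of the respiratory chain, measured in whole freshwater flatworms of Dugesia japonica during exposure to the herbicide glyphosate. A transcript was included when its annotation named a planarian species and one of the mitochondrially encoded subunits ND1 to ND6, ND4L, COX1 to COX3, CYTB or ATP6, and when its mean over 12 libraries was at least 5 TPM, a level scaled by transcript length and by the library's total. The rule was met by 9 of the 30535 transcripts in the table, 1 for each of ND1, ND2, ND3, ND4, ND5, CYTB, COX1, COX2 and COX3. No transcript met it for ND4L, ND6 or ATP6, which are not analysed here. The worms belonged to the clonal strain Dj-NH, kept by asexual reproduction in the laboratory. Unexposed worms gave 3 libraries, and worms held in 64 mg per L glyphosate gave 3 libraries each after 1, 3 and 5 days. Polyadenylated RNA was purified from the total RNA of worms frozen at sampling. The labels give neither the day on which unexposed worms were sampled nor how many worms went into a library. Whether the 3 libraries of each group stem from different cultures is not labelled either, and p-values here therefore describe the spread among these libraries alone.

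Animal mitochondria keep a small circular genome that encodes a few core subunits of the respiratory chain, while the nucleus encodes all the other subunits of these complexes and the whole of complex II. Complex I passes electrons from NADH to ubiquinone, complex III passes them on to cytochrome c, and complex IV passes them to oxygen. Complexes I, III and IV pump protons as they do so, and the ATP synthase uses the gradient. In mammals the mitochondrial genome is read as long transcripts that are cut at tRNAs into separate messages and then polyadenylated, which lets poly(A) libraries capture them.

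The annotation of the 9 transcripts rested on more than a name. For 8 of them the deposited table listed a Pfam domain of the subunit and a Swiss-Prot hit to it, and 7 had a Dugesia japonica protein as best hit. ND3 had its best hit in a Girardia species and ND2 in Dugesia ryukyuensis, and ND2 was the transcript with neither a Pfam domain nor a Swiss-Prot hit. COX1, ND4 and CYTB carried identifiers of a single assembly cluster, and ND3 and ND2 those of another, so reads could have been divided among neighbours differently than listed. CYTB, with a mean of 5.36 TPM, lay just inside the level limit. ND2, ND1 and CYTB had a mean above 5 TPM in unexposed and day 1 worms and below it at days 3 and 5. They thus met the limit through the groups in which they were higher, and counts and medians over the 9 transcripts carry that choice. The transcript just outside it was a second ND5 piece of 621 bases with a mean of 2.58 TPM (TRINITY_DN39588_c6_g2).

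Levels per length differed widely among the 9 transcripts although all are annotated as mitochondrially encoded. Averaged over 12 libraries, COX2 stood highest at 124 TPM, followed by ND3 at 61.2, COX1 at 24.2 and COX3 at 15.9 TPM. The order COX2, ND3, COX1, COX3 held for each neighbouring pair in 12 of 12 libraries. Below them ND5 had a mean of 14.5, ND4 11.01, ND2 5.83, ND1 5.66 and CYTB 5.36 TPM. ND5 exceeded ND4, and ND4 exceeded ND2, in 11 of 12 libraries. Neighbours whose order changed between libraries were COX3 and ND5, with COX3 higher in 7 of 12, ND2 and ND1, with ND2 higher in 6 of 12, and ND1 and CYTB, with ND1 higher in 7 of 12. The plot of TPM by library shows each value.

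**Figure D1:**
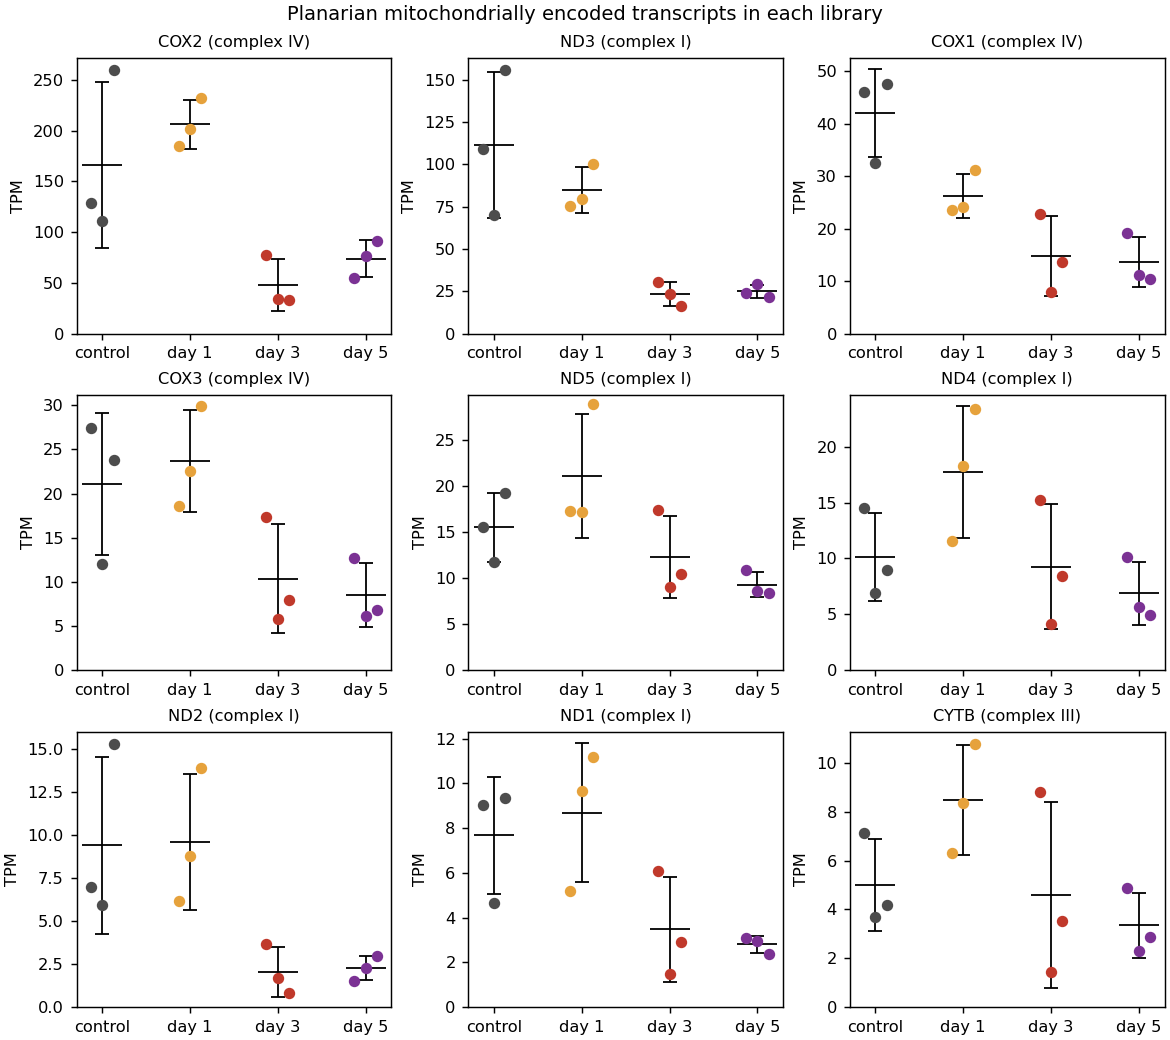
TPM of each of the 9 transcripts (y axis, starting at 0) in the 4 groups (x axis). Points are libraries, the horizontal bar is the group mean and the whiskers are the SD of 3 libraries. ND3 lies between 69.8 and 156 TPM in unexposed worms and between 16.1 and 30.5 TPM at day 3, and ND4 overlaps between these groups.

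Library totals ran from 978610 to 986584 TPM, close together because TPM is scaled to a fixed total. Between 18888 and 23602 transcripts reached 1 TPM in a library. Of the listed transcripts 4255 had a flatworm protein as best hit. The share of RNA taken by a few transcripts differed between groups. The second most abundant transcript, with no annotation, took 20207 to 116142 TPM in unexposed worms and 173142 to 295823 TPM at day 3. The most abundant, also with no annotation, took 294956 to 427889 TPM in unexposed worms and 193232 to 350916 TPM at day 3, which overlapped. Since TPM shares 1 total, values rescaled without the 2 most abundant transcripts are given below where they touch a result. In bulk RNA from whole worms, fewer cells of a type and less RNA per cell cannot be told apart.

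After 3 days of exposure, 4 of the 9 transcripts were lower than in unexposed worms and none was higher, and after 5 days 3 were lower and none was higher. The 4 were ND3, ND2, COX2 and COX1. Log2(TPM + 1) values of all 27329 transcripts that passed the filter on low values were tested together with limma, with p-values adjusted over all of them and called at 0.05. All 9 transcripts passed that filter, and both comparisons use the same 3 unexposed libraries. Of all tested transcripts, 1.19% were called lower and 0.428% higher at day 3, and 2.23% lower and 0.681% higher at day 5. At day 3 all 9 transcripts had a negative log2 fold change, with a median of -1.04, beside a median of -0.06 over all tested transcripts. At day 5 all 9 were again negative, with a median of -1.15 beside -0.09, and all 9 were negative at both times under every scaling tried. The day 3 call of COX2 held in 15 of 24 alternative settings, that of COX1 in 14 and that of ND2 in 13. The 3 exposed libraries lay below the 3 unexposed ones without overlap for 4 of 9 transcripts at day 3, beside 10.5% of tested transcripts, and for 6 of 9 at day 5, beside 15.6%. Counts over the 9 carry the level limit that ND2, ND1 and CYTB met through the groups in which they were higher. An F test in limma over the 4 groups called the same 4 transcripts (adjusted p = 0.000302 for ND3, 0.00624 for COX2, 0.0161 for ND2 and 0.0241 for COX1), and it called 1.84% of all tested transcripts. A fold change on the log2(TPM + 1) scale understates the change of transcripts with low values.

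**Figure D2:**
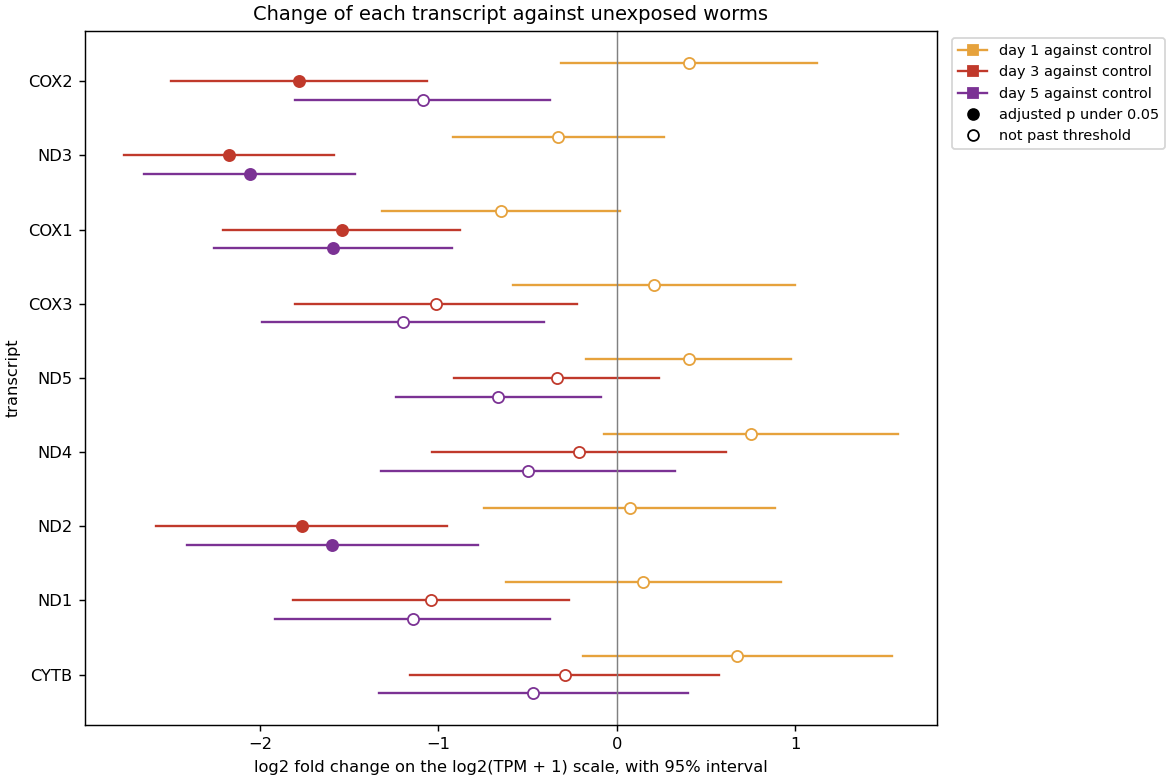
Log2 fold change on the log2(TPM + 1) scale (x axis) of each transcript (y axis) at days 1, 3 and 5 against unexposed worms, with its 95% interval. Filled points passed an adjusted p of 0.05. ND3, ND2, COX2 and COX1 are filled at day 3, and ND3, ND2 and COX1 at day 5, while the intervals of ND4 and CYTB include 0 at all 3 times.

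Complex I holds 5 of the 9 transcripts, of which ND3 and ND2 passed the test. ND3 is a small membrane subunit whose loop lies near the junction of the complex's membrane and matrix arms. The ND3 transcript (TRINITY_DN34363_c3_g9, 429 bases) was at 109, 69.8 and 156 TPM in the 3 unexposed libraries and at 75.2, 79.3 and 100.2 TPM at day 1. It was at 30.5, 23.6 and 16.1 TPM at day 3 and at 23.9, 29.2 and 21.5 TPM at day 5. Every day 3 and day 5 library lay below every unexposed and every day 1 library. The mean went from 112 ± 43.1 TPM (SD, n = 3) to 23.4 ± 7.25 TPM at day 3 and 24.8 ± 3.93 TPM at day 5, which is 21.0% and 22.3% of the unexposed mean. ND3 fell by 2.18 on the log2 scale at day 3 (SE 0.28, limma adjusted p = 0.000598) and by 2.06 at day 5 (SE 0.28, adjusted p = 0.000678). It was called lower at both times in all 24 alternative settings, with an adjusted p of at most 0.0296 at day 3 and at most 0.0150 at day 5. Rescaled without the 2 most abundant transcripts, its log2 fold change was -2.04 at day 3 and -1.91 at day 5.

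ND2, one of the antiporter-like subunits of the proton-pumping membrane arm, was a low transcript (TRINITY_DN34363_c3_g7, 881 bases). Its unexposed libraries held 6.96, 5.94 and 15.3 TPM and its day 1 libraries 6.16, 8.78 and 13.9 TPM. At day 3 it was at 3.66, 1.66 and 0.840 TPM and at day 5 at 1.53, 2.27 and 2.95 TPM. The highest exposed value at days 3 and 5 was below the lowest unexposed value, and unexposed library 3 held the highest ND2 value of all 12. ND2 fell by 1.77 on the log2 scale at day 3 (SE 0.38, limma adjusted p = 0.0298) and by 1.59 at day 5 (SE 0.38, adjusted p = 0.0365). The day 3 call was lost without unexposed library 1 (adjusted p = 0.0657), unexposed library 3 (0.120), day 3 library 2 (0.0828) or day 3 library 3 (0.114). The day 5 call was lost without unexposed library 1 (adjusted p = 0.0794) or 3 (0.134), and without day 5 library 1 (0.151), 2 (0.0920) or 3 (0.0648). Rescaled without the 2 most abundant transcripts, ND2 was at -1.87 at day 3 and -1.61 at day 5 on the log2 scale, with neither past the test (adjusted p = 0.0635 and 0.0849).

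The other complex I transcripts did not pass the test at either time. ND1, which forms part of the ubiquinone-binding chamber (TRINITY_DN34190_c0_g2, 1493 bases), was at 9.04, 4.67 and 9.35 TPM in unexposed worms and 5.20, 9.64 and 11.2 TPM at day 1. It was at 6.06, 1.46 and 2.89 TPM at day 3 and 3.08, 2.96 and 2.37 TPM at day 5. The day 5 libraries of ND1 lay below all unexposed ones, while the first day 3 library lay among them. Its log2 fold change was -1.04 at day 3 (limma adjusted p = 0.183) and -1.15 at day 5 (adjusted p = 0.106).

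ND5 and ND4 are antiporter-like subunits of the outer membrane arm. ND5 (TRINITY_DN39588_c6_g1, 1039 bases) was at 15.5, 11.7 and 19.2 TPM in unexposed worms, 17.2, 17.1 and 28.8 TPM at day 1, 17.4, 9.05 and 10.4 TPM at day 3 and 10.9, 8.54 and 8.42 TPM at day 5. Its day 5 libraries lay below the unexposed ones, and its day 3 libraries overlapped them. The log2 fold change of ND5 was -0.34 at day 3 (limma adjusted p = 0.634) and -0.66 at day 5 (adjusted p = 0.226). ND4 (TRINITY_DN38996_c3_g3, 1124 bases) was at 14.5, 6.93 and 8.98 TPM in unexposed worms, 11.6, 18.3 and 23.4 TPM at day 1, 15.2, 4.18 and 8.40 TPM at day 3 and 10.1, 5.62 and 4.93 TPM at day 5. All exposed groups of ND4 overlapped the unexposed group. Its day 3 change of -0.21 had a 95% interval of -1.04 to 0.61 on the log2 scale, and its day 5 change of -0.50 one of -1.32 to 0.32. At day 3 the sign of ND4 turned positive without unexposed library 1, and those of ND4 and CYTB without day 3 library 2, with none past the test.

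CYTB, the heme-carrying core of complex III that binds ubiquinol, is the mitochondrially encoded subunit of that complex (TRINITY_DN38996_c3_g2, 1325 bases). It was at 7.15, 3.69 and 4.18 TPM in unexposed worms and 6.30, 8.36 and 10.8 TPM at day 1. It was at 8.81, 1.42 and 3.54 TPM at day 3 and 4.87, 2.31 and 2.86 TPM at day 5. The day 3 libraries spanned more than the whole unexposed range, from the lowest CYTB value of all 12 libraries to one above every unexposed library. Its log2 fold change was -0.29 at day 3 (95% interval -1.16 to 0.57) and -0.47 at day 5 (95% interval -1.33 to 0.40), and neither passed the test (limma adjusted p = 0.819 and 0.633).

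Complex IV, cytochrome c oxidase, was represented by its 3 mitochondrially encoded subunits. COX2, which carries the copper centre that takes electrons from cytochrome c (TRINITY_DN39458_c5_g8, 664 bases), was at 128, 111 and 259.7 TPM in unexposed worms and 185, 202 and 232 TPM at day 1. It was at 77.5, 34.0 and 32.8 TPM at day 3 and 54.3, 76.1 and 90.8 TPM at day 5. Unexposed library 3 was the highest of all 12, and all day 3 and day 5 libraries lay below all unexposed ones. COX2 fell by 1.78 on the log2 scale at day 3 (SE 0.34, limma adjusted p = 0.0133), to 28.9% of the unexposed mean. At day 5 its mean was 44.3% of the unexposed mean and the change of -1.09 did not pass the test (SE 0.34, adjusted p = 0.0986). The day 3 call was lost without unexposed library 3 (adjusted p = 0.0563), day 3 library 2 (0.0626) or day 3 library 3 (0.0683).

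COX1 is the catalytic subunit in which oxygen is reduced (TRINITY_DN38996_c3_g1, 1995 bases). Its values were 46.1, 32.5 and 47.5 TPM in unexposed worms and 23.6, 24.2 and 31.1 TPM at day 1. At day 3 they were 22.9, 7.89 and 13.6 TPM and at day 5 19.1, 11.2 and 10.4 TPM. Every exposed library at each time was below every unexposed one. COX1 fell by 1.54 on the log2 scale at day 3 (SE 0.31, limma adjusted p = 0.0206) and by 1.59 at day 5 (SE 0.31, adjusted p = 0.0127). The day 3 call was lost without unexposed library 1 (adjusted p = 0.0883) or 3 (0.0786) and without day 3 library 2 (0.0649) or 3 (0.0670). The day 5 call was lost without unexposed library 1 (adjusted p = 0.0623), day 5 library 2 (0.0532) or day 5 library 3 (0.0609).

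COX3, a structural subunit with no redox centre (TRINITY_DN30709_c0_g2, 738 bases), was at 27.5, 12.0 and 23.8 TPM in unexposed worms and 18.6, 22.5 and 29.9 TPM at day 1. It was at 17.4, 5.78 and 7.94 TPM at day 3 and 12.7, 6.12 and 6.81 TPM at day 5. Its second unexposed library was low, so both exposed groups overlapped the unexposed one. The log2 fold change of COX3 was -1.02 at day 3 (limma adjusted p = 0.206) and -1.20 at day 5 (adjusted p = 0.0986). Without unexposed library 2 the day 5 change of COX3 was -1.54 and passed the test (adjusted p = 0.0462).

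After 1 day of exposure none of the 9 transcripts was called in limma, where 0.132% of tested transcripts were called, and none had an unadjusted p under 0.05. The median log2 fold change of the 9 was 0.21, beside -0.08 over all tested transcripts, and 2 of 9 were negative. ND4 had the highest change at 0.75 (95% interval -0.07 to 1.58), with 11.6, 18.3 and 23.4 TPM at day 1 beside 14.5, 6.93 and 8.98 TPM. COX1 had the lowest at -0.65 (95% interval -1.31 to 0.02, adjusted p = 0.577), and it was the transcript whose 3 day 1 libraries all lay below the unexposed ones, as 7.71% of tested transcripts did. COX2 at 0.41, ND5 at 0.40 and CYTB at 0.68 were above 0 and ND3 at -0.33 was below, each with an interval that included 0.

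The exposure times were also compared with each other. Between day 1 and day 3, ND3 and COX2 were called lower, while 0.135% of tested transcripts were. ND3 fell by 1.85 on the log2 scale (SE 0.28, limma adjusted p = 0.00577) and COX2 by 2.19 (SE 0.34, adjusted p = 0.00729). Among the 4156 tested transcripts with a flatworm best hit, 3 were called lower in this comparison, and the third was secreted peptide prohormone 18 (TRINITY_DN28060_c0_g1). The ND3 call was lost in 3 of 24 alternatives, among them quantile normalization (adjusted p = 0.0629) and rescaling over flatworm-hit transcripts (adjusted p = 0.0822). The COX2 call was lost in 7 of 24. Among them were quantile normalization (adjusted p = 0.0847), median-ratio scaling (0.0765) and rescaling over flatworm-hit transcripts (0.0822). It was also lost without day 3 library 2 (adjusted p = 0.0801) or 3 (0.0663). ND2, at an adjusted p of 0.0863, was called without day 3 library 1 (0.0235). All 9 transcripts had negative changes, from -0.74 for ND5 to -2.19 for COX2, with a median of -1.19 beside 0.02 over all tested transcripts. For those not called, adjusted p in limma ran from 0.0863 for ND2 to 0.513 for CYTB. For 5 of 9 the libraries did not overlap, beside 8.18% of tested transcripts. This count includes ND2, and the median of the 9 is the value of ND1. Both met the level limit through the groups in which they were higher.

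Between day 1 and day 5, ND3 was called lower (-1.73 on the log2 scale, SE 0.28, limma adjusted p = 0.00873), while 0.392% of tested transcripts were. For all 9 transcripts every day 5 library lay below every day 1 library, as did 11.1% of tested transcripts. ND2, ND1 and CYTB met the level limit through groups that include day 1, so this count is partly set by the selection. The median change of the 9 was -1.29, beside -0.03 over all tested transcripts. It is the value of ND1 and is likewise partly set by the selection. Apart from ND3, adjusted p in limma ran from 0.0708 for COX2 to 0.293 for CYTB. The ND3 call was lost without day 1 library 3 (adjusted p = 0.0501), day 5 library 1 (0.0502) or day 5 library 3 (0.0516). COX2 (-1.50, adjusted p = 0.0708) passed when unexposed library 3 (0.0360) or day 3 library 1 (0.0246), which enter through the shared estimate of spread, was left out. ND2 (-1.67, adjusted p = 0.0778) passed without day 3 library 1 (0.0462). Between day 3 and day 5 none of the 9 was called and none had an unadjusted p under 0.05, and 0% of tested transcripts were called. COX2 was 0.69 higher at day 5 than at day 3 on the log2 scale (95% interval -0.03 to 1.41), and ND3 0.12 (95% interval -0.47 to 0.71).

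The makeup of the 9 transcripts, which does not depend on the total of all genes, also varied between libraries. ND3 made up 27.1% to 30.0% of their summed TPM in unexposed libraries, 20.3% to 21.6% at day 1, 15.3% to 26.5% at day 3 and 14.2% to 20.2% at day 5. ND5 made up 3.52% to 4.55% in unexposed libraries and 8.70% to 10.8% at day 3, without overlap, and 5.58% to 7.75% at day 5. ND4 made up 1.65% to 3.99% in unexposed libraries and 4.69% to 8.71% at day 3. CYTB made up 0.769% to 1.96% and 1.59% to 4.42% in the same groups, which overlapped. COX2 had the largest share in each of the 12 libraries, at 35.2% to 47.8% in unexposed worms and 34.0% to 38.9% at day 3. The COX1 share was 8.74% to 12.7% in unexposed worms, 6.20% to 6.76% at day 1 and 8.85% to 14.1% at day 3. These shares were described and not tested.

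**Figure D3:**
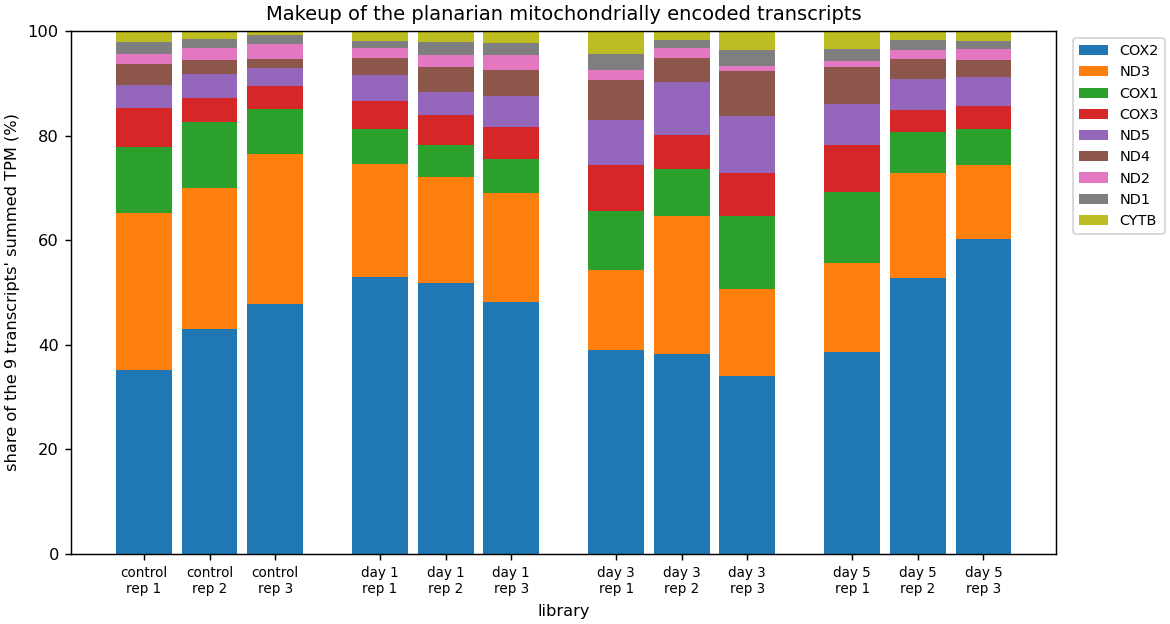
Share of each transcript in the summed TPM of the 9 transcripts (y axis, percent) for each of the 12 libraries (x axis, by group and replicate). The ND3 segment is 27.1% to 30.0% in unexposed libraries and 14.2% to 20.2% at day 5, and the ND5 segment is largest at day 3.

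Across the 12 libraries the transcripts varied together to different degrees, given here as Pearson correlations of log2(TPM + 1), a description whose points share group differences and totals. ND4 and CYTB, of 1 assembly cluster, had r = 0.976, and COX3 and ND1 had r = 0.953. COX2 and ND2 had r = 0.956 and ND3 and ND2 r = 0.948. The lowest values were between ND3 and CYTB, at r = 0.537, and between ND3 and ND4, at r = 0.548.

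The summed level of the 9 transcripts was 364, 258 and 544 TPM in the unexposed libraries and 348, 390.0 and 481 TPM at day 1. It was 199, 89.1 and 96.5 TPM at day 3 and 140.4, 144 and 151 TPM at day 5, so that day 3 and day 5 libraries lay below all unexposed and day 1 ones. Without COX2 and ND3 the sum of the other 7 was 127, 77.5 and 128 TPM in unexposed worms, 91.3, 31.4 and 47.6 TPM at day 3 and 62.2, 39.04 and 38.8 TPM at day 5, and the first day 3 library then lay within the unexposed range.

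The nuclear-encoded partners of these subunits were read in the same libraries. Nuclear transcripts of complexes I to V with a flatworm best hit, 31 in number, summed to 2994, 3158 and 2580.3 TPM in unexposed worms, 2487, 2780.3 and 2294 TPM at day 3 and 2066, 2539 and 2366 TPM at day 5. The sum of the 9 mitochondrially encoded transcripts over that nuclear sum was 0.122, 0.0817 and 0.211 in unexposed libraries, 0.120, 0.124 and 0.183 at day 1, 0.0801, 0.0321 and 0.0420 at day 3 and 0.0679, 0.0568 and 0.0638 at day 5. All day 3 and day 5 ratios were below the unexposed ones, the nearest being day 3 library 1 and unexposed library 2. Without COX2 and ND3 the ratio was 0.0423, 0.0245 and 0.0497 in unexposed libraries, 0.0367, 0.0113 and 0.0208 at day 3 and 0.0301, 0.0154 and 0.0164 at day 5, with library 1 of each of these days inside the unexposed range. Of 30 nuclear transcripts tested, 0 were called higher against unexposed worms, and 0 were lower at day 1, 1 at day 3 and 1 at day 5. Of tested flatworm-hit transcripts, 1.49% were called lower at day 3 and 2.94% at day 5. The median log2 fold change of the 30 was -0.10 at day 3 and -0.25 at day 5, beside -0.05 and -0.12 over flatworm-hit transcripts. All 30 were negative at day 5, and the share of negative values over all transcripts was not counted.

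By complex, the nuclear lists had medians at day 3 of -0.07 over 10 tested transcripts of complex I, -0.15 over 3 of complex II, -0.14 over 5 of complex III, -0.04 over 2 of complex IV and -0.35 over 10 of the ATP synthase. The called nuclear transcript was ATP synthase subunit 9, which forms the rotor ring of the enzyme (TRINITY_DN34408_c1_g10). It was at 224, 269 and 205 TPM in unexposed worms, 148, 133 and 128 TPM at day 3 and 101.1, 142 and 133 TPM at day 5, without overlap. It fell by 0.76 on the log2 scale at day 3 (SE 0.18, limma adjusted p = 0.0495) and by 0.90 at day 5 (adjusted p = 0.0163). The day 3 call was lost in 20 of 24 alternatives, among them the omission of any 1 library other than day 5 library 1 (adjusted p of 0.0595 to 0.143). The day 5 call was lost in 6, among them without unexposed library 1 (0.0502) or 2 (0.0527) and without day 5 library 1 (0.0922). A second transcript annotated as ATP synthase subunit 9, with a mean of 151 TPM over the 12 libraries, was not called at either time (TRINITY_DN39308_c3_g11).

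**Figure D4:**
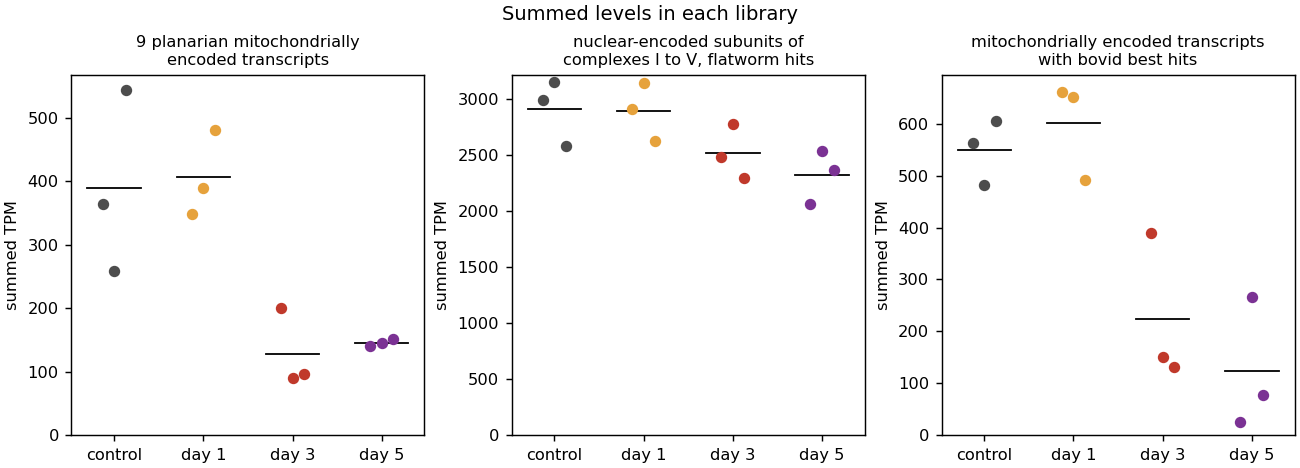
Summed TPM (y axes, each starting at 0) of the 9 planarian mitochondrially encoded transcripts, of 31 nuclear-encoded subunits of complexes I to V and of 8 mitochondrially encoded transcripts with bovid best hits, by group (x axis). Points are libraries and bars are group means; the 9 transcripts sum to 258 to 544 TPM in unexposed worms and 140.4 to 151 TPM at day 5.

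Nuclear genes that serve the expression and assembly of the mitochondrially encoded subunits were lower in part. Of 36 mitochondrial ribosomal proteins, which build the ribosome that translates these messages, 5 were called lower at day 3 and 6 at day 5, and 0 were higher, with medians of -0.47 and -0.63. Over the 4156 tested transcripts with a flatworm best hit, 1.49% were called lower at day 3 and 2.94% at day 5, and the medians were -0.05 and -0.12. The largest fall among the 36 ribosomal proteins was that of L51 of the large subunit (TRINITY_DN34640_c2_g1), from 34.7, 40.4 and 33.6 TPM to 16.8, 18.3 and 14.6 TPM at day 3 and 12.1, 15.3 and 17.6 TPM at day 5, without overlap (log2 fold change -1.23, SE 0.20, limma adjusted p = 0.00307 at day 5). Its day 3 call (adjusted p = 0.0108) was lost without day 3 library 3 (0.0517). The count of lower ribosomal proteins ranged from 0 to 7 over the alternatives at day 3, with 1 without day 3 library 3. At day 5 it ranged from 1 to 14, with 1 without day 5 library 1 and 9 without day 3 library 2. Of 4 transcripts for mitochondrial RNA processing and decay, 1 was called lower at day 5 and 0 at day 3. It was mitochondrial ribonuclease P protein 1, which in humans belongs to the enzyme that cuts mitochondrial transcripts at the 5′ ends of tRNAs (TRINITY_DN38210_c3_g2, 22.5, 17.6 and 17.7 TPM in unexposed worms and 10.7, 10.5 and 10.9 TPM at day 5, log2 fold change -0.79, SE 0.20, limma adjusted p = 0.0487), and this call was lost in 15 of 24 alternatives, among them the omission of any 1 library other than day 1 library 2 or day 3 library 2 (adjusted p of 0.0526 to 0.182). A second transcript annotated as mitochondrial ribonuclease P protein 1, with a mean of 1.51 TPM, was not called (TRINITY_DN34273_c2_g8). Of 5 assembly factors 1 was called lower at both day 3 and day 5, BCS1, which in yeast inserts the iron-sulfur protein into complex III (TRINITY_DN32547_c0_g1). It was at 11.8, 10.95 and 8.61 TPM in unexposed worms, 5.58, 5.31 and 5.17 TPM at day 3 and 4.28, 4.91 and 5.20 TPM at day 5 (limma adjusted p = 0.0448 and 0.0158). The BCS1 call at day 3 was lost in 18 of 24 alternatives, among them each omission of 1 library (adjusted p of 0.0539 to 0.156). At day 5 it was lost without unexposed library 1 (0.0722), day 5 library 1 (0.0789) or day 5 library 2 (0.0532).

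Among 9 mitochondrial chaperones and proteases, HSP10, the lid of the mitochondrial folding chamber, was called lower at days 3 and 5 and 0 were called higher (TRINITY_DN30949_c0_g1). It was at 331, 341 and 287 TPM in unexposed worms, 175, 168 and 175 TPM at day 3 and 139, 164 and 162 TPM at day 5 (limma adjusted p = 0.0127 and 0.00291). The day 3 call of HSP10 was lost in 6 of 24 alternatives (adjusted p up to 0.0828), among them without unexposed library 1 (0.0551). The 9 chaperones and proteases had a median log2 fold change of -0.003 at day 3, where 5 were negative and the highest was at 0.93. At day 5 their median was -0.29, with 6 negative and the highest at 0.87. At day 1, 0 transcripts of these nuclear lists were called in limma, and 4 of 36 ribosomal proteins and 2 of 9 chaperones and proteases had an unadjusted p under 0.05. The replication and transcription list of the mitochondrial genome held 1 transcript, which did not pass the filter on low values, so the machinery that makes the 9 transcripts is not analysed here. The difference between the mitochondrially encoded and the nuclear transcripts was not tested.

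**Figure D5:**
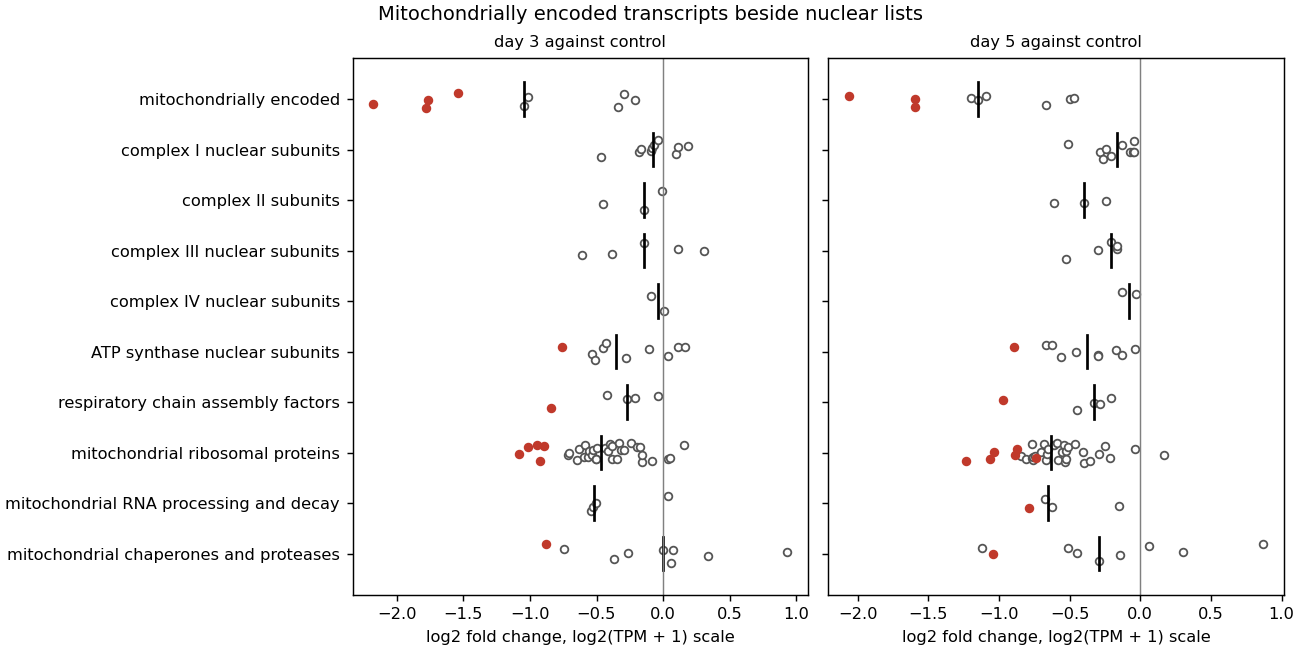
Log2 fold change on the log2(TPM + 1) scale (x axis) at day 3 and day 5 against unexposed worms, for the 9 mitochondrially encoded transcripts and for nuclear lists (y axis). Each point is a transcript, filled where the adjusted p was under 0.05, and the black bar is the list's median, -1.04 for the mitochondrially encoded transcripts and -0.47 for mitochondrial ribosomal proteins at day 3. The median of -1.04 is the value of ND1, which met the level limit through the groups in which it was higher.

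Mitochondrially encoded transcripts of other animals were also present. The 8 with a bovid best hit summed to 562, 482 and 604 TPM in unexposed worms, 661, 651 and 491 TPM at day 1, 389, 149.7 and 131 TPM at day 3 and 25.5, 266 and 76.3 TPM at day 5. Of these 8, 0 were called in limma at day 1 or day 3, with an unadjusted p under 0.05 for 0 and 7 of them, and 7 were called lower at day 5. Their sums were lower at days 3 and 5 than in every unexposed library, as were those of the 9 planarian transcripts, and the part of such RNA in the planarian values was not tested. At day 5 the bovid-hit sum of library 2 was the highest and that of library 1 the lowest, while the planarian sums of the 3 libraries lay between 140.4 and 151 TPM. The 8 transcripts with a primate best hit summed to 72.3, 45.3 and 95.4 TPM in unexposed worms, 90.7, 54.0 and 53.5 TPM at day 1, 35.7, 32.3 and 30.3 TPM at day 3 and 38.6, 57.5 and 56.7 TPM at day 5. All 8 were negative at day 3 with a median log2 fold change of -0.75, where 0 were called in limma and 5 had an unadjusted p under 0.05, and 1 was called lower at day 5. The 8 with a rodent best hit summed to 86.3, 55.8 and 56.1 TPM in unexposed worms and 62.4, 25.4 and 30.3 TPM at day 1. They summed to 21.4, 29.0 and 81.6 TPM at day 3 and 76.8, 46.8 and 68.7 TPM at day 5, and all exposed groups overlapped the unexposed one. All 8 rodent-hit transcripts were negative at day 1 (median -0.65) and day 3 (median -0.58), and 4 of 8 at day 5, with 0 called. All 8 bovid-hit transcripts were also negative at day 3, with a median of -1.26. In day 5 library 1 the primate-hit and rodent-hit sums were above the bovid-hit sum. The 5 with a nematode best hit summed to at most 20.7 TPM in any library.

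A transcript annotated as an rRNA promoter binding protein, which varied strongly between libraries of a group, was at 12379, 4699.5 and 4665 TPM in unexposed worms, 9988, 7959 and 9643 TPM at day 1, 8639, 1233 and 5568 TPM at day 3 and 8598, 2981 and 3812 TPM at day 5. The library highest in it within a group was also the highest in CYTB, ND4 and COX3 in 3 of 4 groups, in COX1, ND5 and ND1 in 2 of 4, and in COX2, ND3 and ND2 in 1 of 4. The lowest library was shared in 2 of 4 groups for CYTB, COX3 and ND5, in 1 for COX1, ND4 and ND1 and in 0 for COX2, ND3 and ND2. With 3 libraries in a group some agreement in order arises without any link, and such agreement was not tallied for other transcripts. The part of this rRNA promoter binding protein transcript in the spread of CYTB, ND4 and COX3 was not tested.

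Markers of cell types that whole worms hold were read beside these transcripts. Of 23 tested markers of neoblasts, the dividing stem cells of planarians, 6 were called lower at day 3 and 7 at day 5, beside 1.49% and 2.94% of tested flatworm-hit transcripts, with summed levels of 602 to 849 TPM in unexposed worms, 393 to 649 TPM at day 3 and 369 to 423 TPM at day 5. Without unexposed library 1 the count at day 3 was 2, and at day 5 it was 2 without day 5 library 1 and 11 without day 3 library 2. At day 1, 0 of the 23 neoblast markers were called in limma, but 22 were negative and 8 had an unadjusted p under 0.05. Their median log2 fold change was -0.44 at day 1, -0.45 at day 3 and -0.70 at day 5, and their day 1 sums were 459 to 570 TPM. The median of the 9 transcripts at day 1 was 0.21. Of 10 muscle, 8 cilia and 16 neuron markers tested, 0 were called against unexposed worms in limma, and at day 3 an unadjusted p under 0.05 was found for 1, 1 and 3 of them. Their summed levels overlapped between unexposed and exposed worms. Muscle markers summed to 455 to 964 TPM in unexposed worms and 455 to 733 TPM at day 5, cilia markers to 38.8 to 70.6 and 26.8 to 42.1 TPM, and neuron markers to 137 to 220.3 and 144 to 159.5 TPM. The neuron list was matched by name, so it also held syntaxins 7, 12 and 16 and an extended synaptotagmin, which are not specific to neurons. The gut list held 1 transcript, a cathepsin B called higher at day 5. The part of cell type makeup in the levels of the 9 transcripts was not tested.

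Outside the 9, transcripts whose pattern was most like that of ND3 were taken as the 3 with the highest Pearson correlation of log2(TPM + 1) with it over 12 libraries. The candidates were 1965 other flatworm-hit transcripts with a protein name and a mean of at least 5 TPM. Of the 9 themselves, which were left out, ND2 had a higher correlation with ND3 (r = 0.948) than any candidate, and COX2 had r = 0.898. The 3 candidates were a Tudor domain-containing 9 transcript (r = 0.909, TRINITY_DN33461_c0_g1), ribonucleotide reductase subunit M2-2, which helps make deoxynucleotides (r = 0.900, TRINITY_DN33815_c0_g1), and mitochondrial ribosomal protein S2 of the small subunit (r = 0.891, TRINITY_DN19284_c0_g1). Tudor domain-containing 9 was at 20.9 ± 1.00 TPM (SD, n = 3) in unexposed worms and 13.5 ± 3.02 TPM at day 3, the reductase at 24.0 ± 4.62 and 7.06 ± 1.66 TPM, and S2 at 33.2 ± 1.54 and 21.0 ± 2.08 TPM. The points of these correlations share libraries, totals and group differences, so they carry no p.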

How the data were processed

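The 12 libraries of poly(A) RNA form 4 groups of 3, taken from the labels. The submitters' processing notes list cutadapt, FastQC, Salmon and edgeR, with no version or role for any of them. The deposited values were read as TPM because Salmon reports TPM and library totals are alike; the header names no unit. TPM carries no sequencing depth, so depth is unknown and no counting interval is given. Every listed transcript reaches 2.01 TPM in some library. Best hits, domains and identifiers are those of the deposited table, which gives no genome coordinates and has 0 other columns of per-library values.

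Members were selected by annotation and by mean level over all 12 libraries. The level limit is not independent of group for ND2, ND1 and CYTB, whose means exceed 5 TPM in unexposed and day 1 worms only. Members, nuclear lists and markers were chosen with earlier results of these data known. Lists matched annotation text among flatworm best hits, and some patterns were tightened after the matched names were read. A cytochrome c list matched 0 transcripts.

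Values were analysed as log2(TPM + 1) for 27329 transcripts reaching 1 TPM in 3 or more libraries. A single limma 3.58.1 model (R 4.3.3) covered the 4 groups, with a trended prior variance and without a replicate block. P-values were two-sided, Benjamini-Hochberg adjusted over all tested transcripts and called at 0.05. The procedure was tested on simulated data. Named nuclear transcripts were, per list and comparison with unexposed worms, the called transcript with the largest fall and that with the largest rise at a mean of 5 TPM or more. Libraries of a group correlated at 0.914 to 0.942, with 0 identical pairs. The 24 alternatives changed the pseudocount, filter, scaling, variance model, block and libraries used.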

Additional observations from a re-analysis of the deposited data

How the results depend on the processing

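In the 24 alternatives no called value changed sign. All 9 transcripts stayed negative at day 5 in every alternative, and at day 3 in all but those without unexposed library 1 (8 of 9), without day 3 library 2 (7 of 9) and without both (7 of 9). The count of transcripts called did change. At day 3 it was 4, and it was 1 with quantile normalization, with median-ratio scaling, without limma's intensity trend, with only the 6 libraries compared, rescaled without the 12 most abundant transcripts, and without both unexposed library 1 and day 3 library 2. At day 5 it was 3, and 1 with quantile normalization and with median-ratio scaling. Between day 1 and day 3 it was 2, and 0 with quantile normalization, over flatworm-hit transcripts only and without both libraries, and 1 with median-ratio scaling and without the 12 most abundant transcripts. Between day 1 and day 5 it was 1, and 0 with quantile normalization and 3 with only the 6 libraries compared. The F test called 4, and 2 with quantile normalization, median-ratio scaling, either rescaling without abundant transcripts or no trend, and 1 without both libraries. Leaving out 1 library at a time gave 1 to 4 at day 3, 1 to 4 at day 5, 1 to 3 from day 1 to day 3, 0 to 3 from day 1 to day 5 and 3 to 6 in the F test. The cause of these changes was not tested. ND3 was called at days 3 and 5 in all 24, COX2 at day 3 in 15, COX1 in 14 and 19 at days 3 and 5, and ND2 in 13 and 12. Among transcripts tested both ways, the median shift in log2 fold change was 0.14 at day 3 and 0.15 at day 5 when rescaled without the 2 most abundant, and 0.17 at both times when rescaled over flatworm-hit transcripts, which leaves only those. Lower calls over all transcripts were 325 of 442 at day 3 and 609 of 795 at day 5, and 201 of 406 and 380 of 723 rescaled without the 2 most abundant. Over the whole table the count of calls ranged from 156 to 869 at day 3 and from 275 to 1425 at day 5. The rescaling without the 12 most abundant transcripts, the omission of 2 libraries together and all alternatives for nuclear transcripts were chosen after seeing the data.

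Replicate numbers did not pair libraries: same-numbered deviations from group means correlated at -0.148 to 0.150, 1 of 18 above 0.1, and 2 of 12 libraries correlated best with their own number. A fit with a replicate block called 4 transcripts at day 3, 3 at day 5, 2 and 1 against day 1, 0 at day 1 and 5 in the F test. Of transcripts called over the whole table at day 1, the block gave 23 in place of 36. Depth is unknown, so transcripts at a few TPM, such as ND2 and CYTB, have a precision that only 3 libraries per group inform.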

Other observations

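The assembly clusters that hold the 9 transcripts contain 11 further transcripts with no annotation, of which 3 had a mean of at least 5 TPM. One of these was called lower at days 3 and 5, and it was chosen after its values were seen. It is a piece of 219 bases in the cluster of COX2 (TRINITY_DN39458_c5_g5). It was at 36.1, 63.1 and 52.4 TPM in unexposed worms and 63.1, 39.5 and 78.2 TPM at day 1. It was at 11.2, 9.49 and 17.2 TPM at day 3 and 12.1, 12.2 and 8.06 TPM at day 5, without overlap with either earlier group. Its log2 fold change was -1.92 at day 3 (SE 0.29, limma adjusted p = 0.00257) and -2.12 at day 5 (SE 0.29, adjusted p = 0.000730). Against day 1 it was -2.16 at day 3 (adjusted p = 0.00182) and -2.35 at day 5 (adjusted p = 0.000806). Its log2 fold change at day 5 was larger in size than the -1.09 of COX2 itself, and the difference was not tested. The others of these 3 did not fall and were not called. A piece of 631 bases in the cluster of COX2 (TRINITY_DN39458_c5_g2) had log2 fold changes of 0.21 at day 3 and 0.42 at day 5. A piece of 707 bases in the cluster of ND3 and ND2 (TRINITY_DN34363_c3_g8) had 0.10 and 0.02.

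The second ND5 piece, left out of the 9 by its low mean, was at 1.20, 1.22 and 3.28 TPM in unexposed worms and 2.83, 5.00 and 7.40 TPM at day 1 (TRINITY_DN39588_c6_g2). It was at 4.56, 1.45 and 0.660 TPM at day 3 and 0.930, 0.990 and 1.41 TPM at day 5, and it was not called at any time. Its log2 fold change against unexposed worms was 1.07 at day 1 (limma unadjusted p = 0.0208, adjusted p = 0.482) and 0.04 at day 3. Unlike the 9, it was therefore not negative at day 3.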
